A study of Homo sapiens with 12 samples.

Results

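Untreated MKN1 cells were compared with untreated AGS cells, 2 human gastric cancer cell lines, across all genes of an mRNA sequencing table. The comparison takes 6 of the series' 12 libraries, the 3 labelled AGS untreated and the 3 labelled MKN1 untreated, chosen by line and treatment alone. The other 6 libraries came from the same lines after cantharidin sodium, a small molecule drug, and serve here mainly to show whether a difference between the lines was also present in treated cells. The labels give AGS as epithelial cells of a gastric adenocarcinoma and MKN1 as gastric adenosquamous carcinoma cells, a tumour type that combines glandular and squamous parts, and call both wild type. Both lines grew in RPMI-1640 with fetal bovine serum, and the labels name no engineered allele. Each group is a single cell line, so every difference below is between these lines and not between tumour types. The design text calls the replicates biological, but no source used here says whether they were separate cultures, so p-values measure only the spread between these libraries, which may be technical.

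The stomach's glandular lining is a simple epithelium that is specified by endoderm transcription factors such as GATA4, GATA6, SOX2 and HNF4A, and that is held together by E-cadherin, claudins and EPCAM. Squamous epithelium, as in skin and oesophagus, is instead built by the transcription factor TP63 and the paired keratins KRT5 and KRT14. Epithelial cells that take on mesenchymal features lose splicing and transcription factors such as ESRP1 and GRHL2 and gain vimentin (VIM), ZEB1 and matrix proteins. In gastric cancer, intestinal genes such as CDX2 and VIL1 can also be switched on.

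Untreated AGS libraries held 34890634 to 51604215 counts and untreated MKN1 libraries 28655540 to 32124107. Mitochondrially encoded genes took 8.23% to 8.59% of the AGS counts and 5.08% to 6.08% of the MKN1 counts. MKN1 replicate 3 stood apart from the other MKN1 libraries. It correlated with them at 0.9803 and 0.9826 (log2 CPM, where CPM is the usual depth-scaled count with TMM library sizes), against 0.9944 between MKN1 replicates 1 and 2 and 0.9958 to 0.9965 among AGS libraries. The first principal component of the 6 libraries carried 93.5% of the variance and separated the lines, and the second carried 4% and set MKN1 replicate 3 against the other MKN1 libraries. The biological coefficient of variation was 12.3% in AGS and 25.5% in MKN1. Where leaving out 1 library, this or another, moved a count or median given below for a list of genes by more than 1.5 times over the same tested members, the value without it is given beside it.

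Most genes differed between the lines. Of 20280 tested genes, 7082 (34.9%) were higher and 6370 (31.4%) were lower in MKN1 at an adjusted p below 0.05. A call below means this threshold together with a difference of at least 2-fold, which 5067 genes (25%) met with higher levels in MKN1 and 3730 (18.4%) with lower levels. These shares are the background against which every list of genes is read. In 4942 of the 5067 and 3689 of the 3730, the 3 MKN1 libraries did not overlap the 3 AGS libraries. The calls were made on these same libraries, so non-overlap adds no support to them. Its share over all tested genes is not given here. Without MKN1 replicate 3, 5175 genes were called higher and 3873 lower. The treated libraries, which entered these calls through the filter on low counts and the shared estimate of the spread, gave the same call for 4178 (82.5%) of the higher and 2661 (71.3%) of the lower genes, and the opposite call for 22 and 77. The median log2 difference over all tested genes was 0.04 (MKN1 minus AGS, as for all differences below). Levels below are CPM per library in replicate order, or mean ± SD (n = 3), and log2 differences are estimate ± SE.

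Exons that overlap those of another gene can share its reads, since the kit does not mark strand. Among genes named below, more than 20% of the exon bases overlapped another annotated gene in LYZ (34%), PSCA (20.9%), VIL1 (44%), VIM (24.4%), ITGB3 (51.6%), PLAU (31.1%), IGF2 (75%), PIK3CA (35.8%), RNF43 (73.9%), AXIN2 (25.2%) and TGFB2 (26.6%). The same held for IL6 (20.7%), IRF9 (48.4%), PYCARD (59.7%), SLC1A5 (23.8%), PYCR1 (29.7%), ALDH1A3 (28.6%), GSTM1 (38.3%), COX6B2 (30.9%), HOXA7 (62.5%) and MEST (27.4%). Values of these genes are uncertain to that extent.

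**Figure D1:**
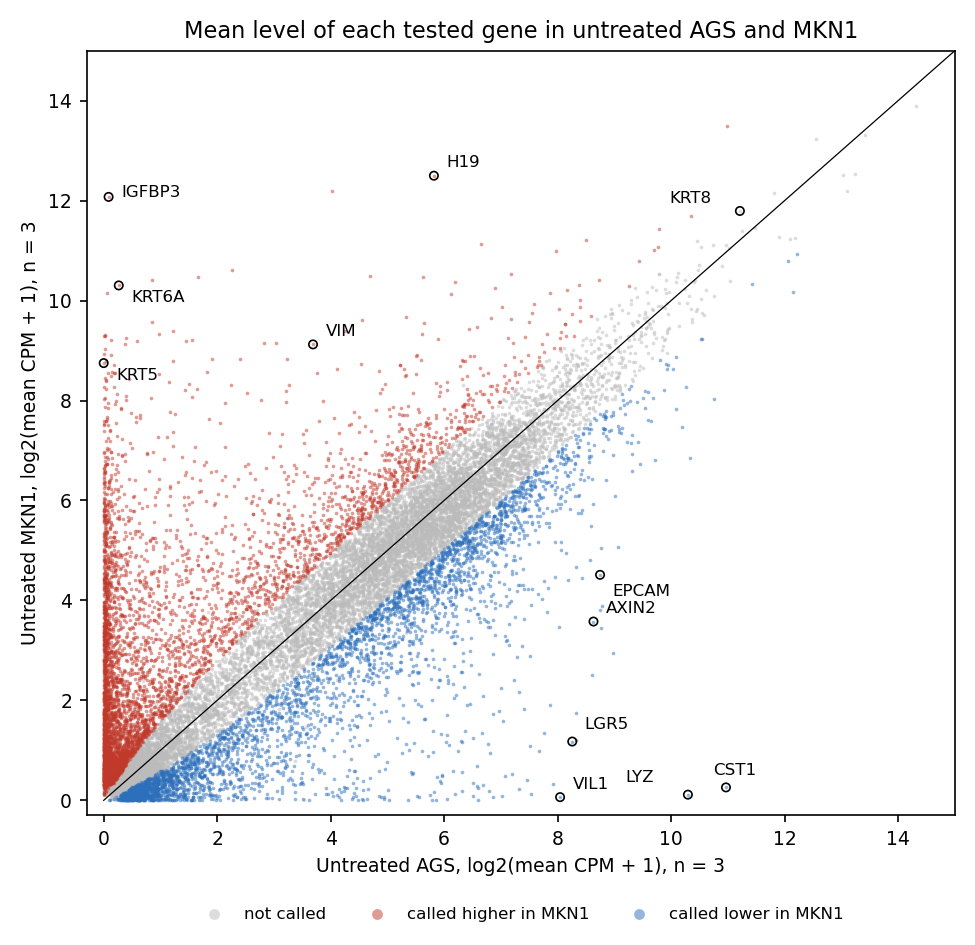
Mean level of each tested gene in untreated AGS (x axis) and untreated MKN1 (y axis), as log2(CPM + 1) over 3 libraries each; red and blue points are called higher or lower in MKN1, grey points are not called, the line marks equal levels and 12 genes are circled. A column of red points stands at AGS levels at or near 0, KRT5 and IGFBP3 among them, whereas KRT8 lies near the line of equal levels.

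The widest contrast was between genes that were on in one line and not detectable at this depth in the other. A gene was taken as off where each of a line's 3 libraries held at most 3 counts, and as on where each held at least 1 CPM with a mean of at least 5 CPM. By this rule 354 genes were on in MKN1 and off in AGS, 314 of them protein-coding, and 28 genes were on in AGS and off in MKN1, 24 of them protein-coding. AGS, in which more genes were off, had the deeper libraries. At the edge of the rule, 85 genes on in MKN1 had 3 counts in their highest AGS library and 71 had 4, and in the other direction these numbers were 8 and 6. Since the rule used these counts, the on/off genes carry no test here.

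Among the most abundant genes on in MKN1 only were GREM1, a secreted BMP antagonist, PNMA5, a retrotransposon-derived gene, the lysosomal protease CTSL, the neuronal and muscle elongation factor EEF1A2, RASSF8, TIMP3, an inhibitor of matrix proteases, KRT5 and EREG. RASSF8 stood at 557, 463 and 446 CPM in the MKN1 libraries and had 0 counts in each AGS library, at least 20280-fold higher in MKN1 with 3 counts over the group as the floor. PNMA5 stood at 581, 637 and 664 CPM against 0 counts, at least 26140-fold higher in MKN1. GREM1 stood at 788, 690.4 and 432 CPM against 2 counts in all AGS libraries together, a ratio of 39190 (95% interval 10850 to 323600), the interval covering counting error only. Separation of the libraries of the lines was part of the rule that chose these genes. Mean levels of the genes on in AGS ran from 5.28 to 128 CPM, and those of the genes on in MKN1 from 5 to 637 CPM. GRHL2, a transcription factor that keeps cells epithelial, stood at 56.3, 58.8 and 56.1 CPM in AGS and at 0 counts in each MKN1 library, at least 1698-fold lower in MKN1. PASD1, a cancer-testis gene, stood at 99.5, 92.9 and 94.7 CPM, at least 2867-fold lower in MKN1. Also on in AGS only were FPR3, a formyl peptide receptor, at 128 ± 26.9 CPM, the fibrinogen chain FGB at 71.98 ± 5.21 CPM, the pancreatic trypsinogen PRSS2 at 54.3 ± 21.6 CPM, the placental glycoprotein PSG4 at 40.05 ± 7.95 CPM, and GSTM1, a glutathione transferase, at 65.2 ± 6.86 CPM. The 2 MKN1 counts of GSTM1 were all in replicate 3. All these genes were well above 1 CPM in each AGS library, where at least 1 CPM was a condition of the rule.

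The off state was mostly kept in treated cells. Of the 354 genes on in MKN1, 352 were also on in treated MKN1 and 263 were also off in treated AGS by the same limit of 3 counts. Of the 28 genes on in AGS, 28 were on in treated AGS and 18 were off in treated MKN1. The 2 genes that treated MKN1 had below the limit of on were LYPD2 and EPGN.

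**Figure D2:**
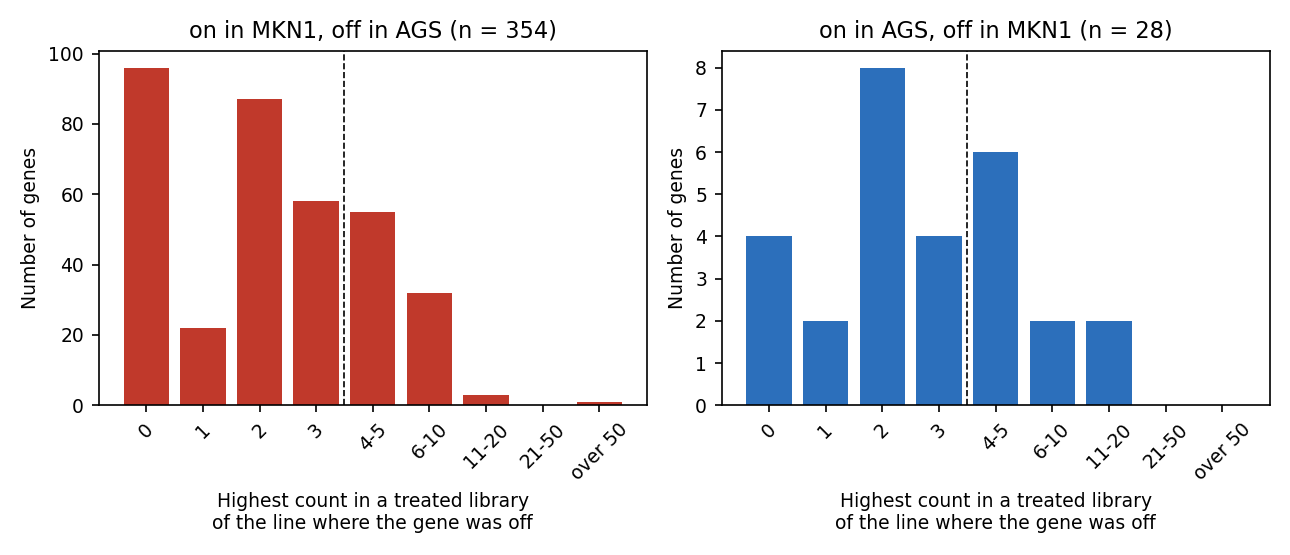
Number of on/off genes (y axis) by their highest count in a treated library of the line where they were off when untreated (x axis, in classes), for the 354 genes on in MKN1 (left) and the 28 genes on in AGS (right). The dashed line marks the limit of 3 counts, with 263 and 18 genes at or below it.

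Several on/off genes were neighbours. On chromosome 4, the genes of 3 EGF receptor ligands, EPGN, EREG and AREG, lie between 74308473 and 74455009 (GRCh38) and were all off in AGS and on in MKN1. On chromosome 12, RASSF8, BHLHE41 and SSPN lie between 25959029 and 26299290 and were likewise off in AGS. On chromosome X the cancer-testis genes XAGE2, XAGE1A and XAGE1B, a GAGE group and the retrotransposon-derived RTL8A, RTL8B and RTL8C were off in AGS. XAGE1A and XAGE1B, and the GAGE genes, are near-identical copies whose counts cannot be told apart with certainty. On chromosome 19, 3 genes of the pregnancy-specific glycoprotein family, PSG11, PSG2 and PSG4, were on in AGS and off in MKN1. These groups were found by looking for at least 3 on/off genes of one direction with starts within 200 kb of each other.

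Promoter windows from RefSeq, 250 bases before to 50 after the start of the gene, are given for 4 on/off genes, 2 of each direction, to show that both CpG-rich and CpG-poor starts were among them. Sequences are 5′ to 3′ on the gene's strand (GRCh38.p14), with each CpG in capitals. KRT5 lies on the minus strand at chr12:52520345-52520644 and TIMP3 on the plus strand at chr22:32801455-32801754. CRB3 lies on the plus strand at chr19:6464021-6464320 and SCEL on the plus strand at chr13:77535456-77535755. Each window holds the annotated start of transcription and the first bases of the first exon.
KRT5: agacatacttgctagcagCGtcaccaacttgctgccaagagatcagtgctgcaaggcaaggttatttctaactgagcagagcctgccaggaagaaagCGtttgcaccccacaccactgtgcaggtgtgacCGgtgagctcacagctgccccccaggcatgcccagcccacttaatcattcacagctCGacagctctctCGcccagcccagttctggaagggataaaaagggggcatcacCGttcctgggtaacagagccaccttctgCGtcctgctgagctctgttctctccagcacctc
TIMP3: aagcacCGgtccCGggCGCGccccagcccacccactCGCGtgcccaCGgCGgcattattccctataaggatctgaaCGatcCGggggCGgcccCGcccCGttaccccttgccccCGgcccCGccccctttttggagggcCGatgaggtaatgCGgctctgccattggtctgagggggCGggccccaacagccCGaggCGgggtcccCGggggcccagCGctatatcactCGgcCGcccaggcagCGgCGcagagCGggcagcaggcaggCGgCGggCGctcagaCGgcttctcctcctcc
CRB3: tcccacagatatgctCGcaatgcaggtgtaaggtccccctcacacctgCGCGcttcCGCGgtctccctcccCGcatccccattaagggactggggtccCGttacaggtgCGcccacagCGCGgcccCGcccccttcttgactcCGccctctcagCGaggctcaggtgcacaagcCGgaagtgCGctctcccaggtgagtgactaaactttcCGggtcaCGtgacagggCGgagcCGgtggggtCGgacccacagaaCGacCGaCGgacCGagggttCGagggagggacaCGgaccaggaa
SCEL: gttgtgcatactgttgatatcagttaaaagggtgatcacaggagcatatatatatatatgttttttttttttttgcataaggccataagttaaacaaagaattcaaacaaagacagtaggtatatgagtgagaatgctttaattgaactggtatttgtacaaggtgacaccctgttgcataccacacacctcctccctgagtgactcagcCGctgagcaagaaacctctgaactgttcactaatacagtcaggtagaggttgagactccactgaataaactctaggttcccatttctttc
The KRT5 window (on in MKN1) held 7 CpG and the TIMP3 window (on in MKN1) 31. The CRB3 window (on in AGS, a polarity protein of epithelial cells) held 26 and the SCEL window (on in AGS, a protein of the cornified envelope) 1. Over the 27305 promoter windows of the table, taken once per symbol, the median was 14 CpG. The motif CG, which is its own reverse complement and so reads the same on both strands, was present at least 7 times in 62.5% of them, at least 31 times in 20.4%, at least 26 times in 29.8% and at least once in 95.8%. Whether the on/off genes as a group differ from other genes in CpG content could not be checked. Only 235 of the 314 protein-coding genes on in MKN1 (74.8%) and 16 of the 24 on in AGS (66.7%) matched a window by symbol, so that check is void. Methylation was not measured.

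Keratins of simple epithelia, which mark both lines as epithelial, were abundant in both. KRT8, with KRT18 the keratin pair of simple epithelia, stood at 2130, 2286 and 2702 CPM in AGS and 3638, 4142 and 2871 CPM in MKN1. KRT18 stood at 956, 1049 and 1284 CPM and 1206, 1524 and 1511 CPM. KRT8 passed the threshold on p but differed by less than 2-fold, by 0.58 ± 0.17 on the log2 scale (estimate ± SE). KRT18 differed by 0.37 ± 0.14 (adjusted p = 0.0305), with overlapping libraries, and its p passed the threshold in only 2 of the 6 fits that left out 1 library. KRT19 differed by 0.18 ± 0.14 (adjusted p = 0.289), also with overlapping libraries. KRT7, a keratin of ducts and glands, differed widely: its libraries stood at 1.61, 1.60 and 2.62 CPM in AGS and 464, 542 and 765 CPM in MKN1. Of 6 tested simple keratin genes, 2 were called higher, KRT7 and KRT23, and 0 lower in MKN1 (median 0.47).

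Most squamous genes were higher in MKN1, the line labelled adenosquamous, and KRT5, KRT14 and KRT6A were near 0 in AGS. Of 38 tested squamous and basal genes, 27 were called higher and 0 lower in MKN1, against 25% and 18.4% of all genes, with a median difference of 5.60 (5.47 with the 3 members at 0 in all libraries of a line set to their bound). The summed level of the list was 784 to 873 CPM in AGS libraries and 6672 to 12780 CPM in MKN1 libraries. SCEL, a protein of the cornified envelope that the list does not hold, went the other way, at 30.6, 34.1 and 29.8 CPM in AGS and 0 counts in each MKN1 library, at least 935-fold lower in MKN1. KRT5 stood at 390.0, 477 and 421 CPM in MKN1 and had 0 counts in each AGS library, at least 17800-fold higher in MKN1. KRT14, its partner keratin, stood at 0.217, 0.257 and 0.436 CPM in AGS and 676, 753 and 252 CPM in MKN1. KRT6A, a keratin of activated keratinocytes, stood at 0.138, 0.314 and 0.154 CPM and 1424, 1583 and 781 CPM. In each case every MKN1 library was far above every AGS library, and the third MKN1 library was the lowest for KRT14 and KRT6A. TP63, the transcription factor of squamous identity, stood at 13.2, 11.4 and 6.87 CPM in MKN1 and at 10 counts in all AGS libraries together, a ratio of 129 (95% interval 70.04 to 271) between the lines. S100A8, a calcium-binding protein of inflamed squamous epithelium, stood at 163, 185 and 36.3 CPM against 7 counts, a ratio of 2205 (95% interval 1070 to 5485) between the lines. DSG3, a desmosomal cadherin that was named for its place among the markers, stood at 7.64, 5.43 and 1.35 CPM. MKN1 replicate 3 was lower than the other MKN1 libraries over the list: its median, as log2(CPM + 1) minus the AGS mean, was 1.35 against 2.62 and 2.56 in replicates 1 and 2. Without replicate 3, 28 members were called higher and 0 lower. Keratins 6A, 6B and 6C are close copies of each other, so that their counts may be shared.

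Per kilobase of exon, so that levels can be set against each other, KRT6A stood at 431 ± 145 RPKM (CPM per kilobase of annotated exon), KRT14 at 246 ± 118, KRT5 at 100 ± 10.2 and KRT7 at 144 ± 38.2 in MKN1. KRT8 stood at 516 ± 93.04, KRT18 at 439 ± 55.9 and KRT19 at 362 ± 42.3 on the same scale. The order by mean was KRT8, KRT18, KRT6A, KRT19, KRT14, KRT7 and KRT5, and the first 4 lay within the spread of KRT6A, so that their order is not settled by these libraries.

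**Figure D3:**
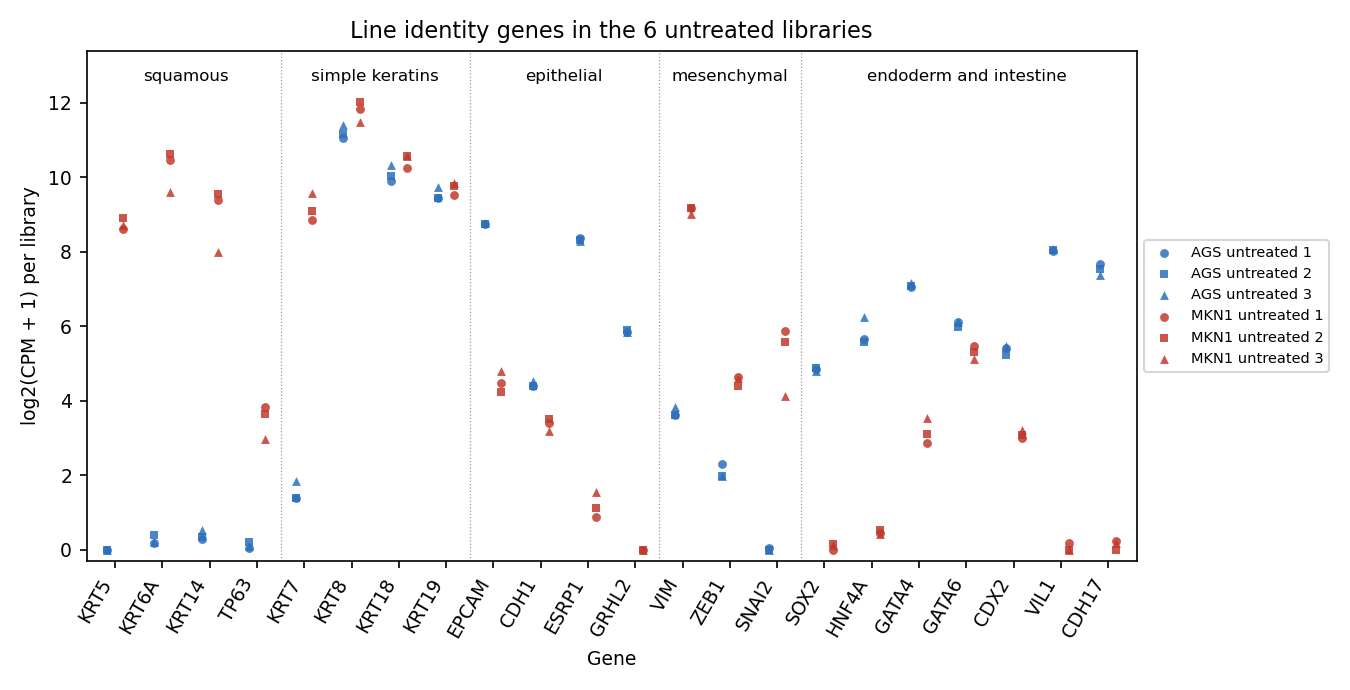
Level of 22 line identity genes in each untreated library, as log2(CPM + 1) (y axis); AGS libraries are blue, MKN1 libraries red, and circles, squares and triangles are replicates 1, 2 and 3. Squamous keratins and mesenchymal genes are high in MKN1, SOX2, HNF4A, VIL1 and CDH17 are high in AGS, and KRT8, KRT18 and KRT19 stand close together in all 6 libraries.

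Endoderm transcription factors were higher in AGS. Of 30 tested lineage factors, 23 were called lower and 5 higher in MKN1, with a median difference of -2.56. SOX2, a factor of stomach and oesophagus, stood at 27.9, 28.6 and 27.03 CPM in AGS against 6 counts in all MKN1 libraries, a ratio of 415 (95% interval 191 to 1132) between the lines. HNF4A, a nuclear receptor of the gut, stood at 49.4, 46.9 and 75.7 CPM in AGS and 0.374, 0.438 and 0.337 CPM in MKN1. FOXA3, a forkhead factor of endoderm, fell from 59.5 ± 6.61 to 0.306 ± 0.135 CPM. For these 3 factors each AGS library was above each MKN1 library. GATA4 stood at 132, 134 and 141 CPM and 6.22, 7.55 and 10.7 CPM, a difference of -4.05 ± 0.19, whereas GATA6 stood at 66.3 ± 3.33 and 38.6 ± 4.77 CPM and differed by less than 2-fold (-0.78 ± 0.13, adjusted p = 0.000139). CDX2, the intestinal homeodomain factor, stood at 40.5 ± 3.35 CPM in AGS and 7.58 ± 0.666 CPM in MKN1. The 5 factors higher in MKN1 were HHEX, ONECUT2, the stomach homeodomain genes NKX6-3 at 16.4 ± 10.4 CPM and BARX1 at 34.1 ± 9.54 CPM, which AGS libraries held at 0.0362 ± 0.0314 and 0.107 ± 0.0940 CPM, and KLF4 (2.20 ± 0.18), a factor of differentiating epithelium.

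Gastric differentiation genes were split. MUC5AC, the mucin of surface mucous cells, stood at 0.207 ± 0.0771 CPM in AGS and 0.236 ± 0.0628 CPM in MKN1 and did not pass the test (adjusted p = 0.816, interval of the log2 difference -0.84 to 1.15). TFF1, a trefoil peptide of the same cells, stood at 3.47, 3.94 and 3.65 CPM and 0.340, 0.584 and 0 CPM, and CLDN18, the stomach claudin, at 0.536 ± 0.0971 and 0.105 ± 0.107 CPM. Of 23 tested gastric genes, 10 were called lower and 9 higher in MKN1 (median 0.53), and without MKN1 replicate 3 these were 10 and 8. The median was 0.23 without MKN1 replicate 2, -2.20 in a fit of the 6 untreated libraries alone and -3.55 with a filter of 5 CPM, both of which test fewer members. The summed level of the list was 1396 to 1902 CPM in AGS libraries and 245 to 299 CPM in MKN1 libraries, and most of the AGS sum was LYZ, the antibacterial enzyme lysozyme. LYZ stood at 1575, 1149 and 1048 CPM in AGS and at 8 counts in all MKN1 libraries, all of them in replicate 3, a ratio of 14430 (95% interval 7325 to 33430) between the lines. The aspartic protease CTSE fell from 165 ± 6.33 CPM in AGS to 7.53 ± 1.39 CPM in MKN1 and the stomach calpain CAPN8 from 18.5 ± 1.55 to 0.193 ± 0.134 CPM. The cell surface mucin MUC1 was at the edge of the call, higher in MKN1 by 1.01 ± 0.16, and PSCA, a surface antigen of stomach and prostate, was higher by 2.35 ± 0.28. The secreted protease inhibitor CST1, one of the largest differences of all, stood at 1848, 1834 and 2325 CPM in AGS and 0.272, 0.255 and 0.0613 CPM in MKN1.

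Intestinal genes were split. Of 24 tested, 13 were called lower and 8 higher in MKN1 (median -1.65). VIL1, the microvillus protein villin, stood at 259, 262 and 268 CPM in AGS and at 4 counts in all MKN1 libraries, a ratio of 5873 (95% interval 2294 to 21560) between the lines. CDH17, the liver-intestine cadherin, stood at 201, 185 and 165 CPM against 9 counts, a ratio of 1844 (95% interval 971 to 4032) between the lines. MUC13, a transmembrane mucin, stood at 90.6 ± 8.14 CPM in AGS and 0.266 ± 0.216 CPM in MKN1. Each AGS library was far above each MKN1 library for these 3 genes. The brush border peptidases DPP4 and ANPEP lay the other way, with DPP4 at 57.7, 51.6 and 40.5 CPM in MKN1 and 3 counts in AGS, and ANPEP at 101, 114 and 102 CPM in MKN1 and 0.101 ± 0.109 CPM in AGS.

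Markers of blood, vessel and connective tissue cells were mixed and mostly low. PTPRC, the pan-leukocyte marker, had at most 28 counts in any of the 6 libraries and CDH5, the endothelial cadherin, at most 2. LUM, a matrix proteoglycan of fibroblasts, stood at 128, 114 and 71.4 CPM in MKN1 and 2 counts in AGS, and PDPN, podoplanin, at 55.1, 55.1 and 72.3 CPM and 0 counts. PDGFRA, a receptor of mesenchymal cells, stood at 41.2, 42.3 and 42.2 CPM in AGS and 0.578, 0.255 and 0.583 CPM in MKN1. Of 18 tested marker genes of these cells, 8 were called higher and 5 lower in MKN1, the lower ones being LYZ, PDGFRA, PDGFRB, CSF1R and HBB. The difference of PDGFRB leans on AGS replicate 3, at 0.827, 0.714 and 3.41 CPM in AGS and 0.476, 0.401 and 0.583 CPM in MKN1. HBB was uneven too, at 18.9, 8.5 and 6.8 CPM in AGS and 4.8, 5.4 and 2.1 CPM in MKN1. DCN, a fibroblast proteoglycan, had 128 to 384 counts in MKN1 libraries and 0 in AGS libraries, and PECAM1, an endothelial marker, 5 to 28 and 0. Their summed level was 1115 to 1654 CPM in AGS, LYZ included, and 208 to 252 CPM in MKN1, and their part in the other results was not tested. In such bulk samples, fewer cells that express a gene and less of its RNA per cell cannot be told apart.

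Adhesion and polarity genes of epithelium were lower in MKN1. Of 43 tested, 31 were called lower and 3 higher (median -1.61). EPCAM stood at 428, 425 and 434 CPM in AGS and 21.1, 17.7 and 26.6 CPM in MKN1, a difference of -4.30 ± 0.15 (adjusted p = 7.22e-11). CDH1, which encodes E-cadherin, was low in both lines, at 20.2, 20.2 and 21.9 CPM and 9.48, 10.3 and 8.09 CPM (-1.16 ± 0.21). RAB25, a trafficking protein of polarised cells, stood at 109.6 ± 11.3 and 0.142 ± 0.127 CPM, and CRB3 at 29.7 ± 2.67 CPM against 4 counts. CDH3, the P-cadherin of basal cells, was one of the 3 higher members, with CLDN3 and NECTIN1, at 0.236 ± 0.118 CPM in AGS and 17.9 ± 3.51 CPM in MKN1. CDH2, which encodes N-cadherin, was below the filter on low counts, with 0 to 11 counts per library.

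Regulators of the epithelial state followed. Of 19 tested, 16 were called lower and 3 higher in MKN1 (median -2.13), and the same counts held without MKN1 replicate 3. ESRP1, which sets epithelial splicing, stood at 329, 319.5 and 311 CPM in AGS and 0.850, 1.17 and 1.93 CPM in MKN1, a difference of -7.91 ± 0.27. The membrane serine protease PRSS8 fell from 241 ± 32.2 to 0.252 ± 0.106 CPM. With GRHL2 at 0 counts, these 3 genes separated the lines in every library. The 3 higher members were TP73 and the AP-2 factors, TFAP2C at 37.8, 37.8 and 35.01 CPM in MKN1 against 2 counts in AGS, and TFAP2A at 12.7 ± 0.258 CPM in AGS and 86.1 ± 5.64 CPM in MKN1.

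Transcription factors that drive the epithelial-mesenchymal transition were higher in MKN1 in 9 of 15 tested and lower in 2 (median 2.77). The summed level of the list was not higher, at 566 to 702 CPM in AGS libraries and 424 to 759 CPM in MKN1 libraries. MKN1 replicate 3 had a lower median over the list than replicates 1 and 2, 1.18 against 2.34 and 2.11 on the log2(CPM + 1) scale. ZEB1, a repressor of E-cadherin, stood at 3.94, 2.94 and 2.90 CPM in AGS and 23.8, 19.9 and 23.4 CPM in MKN1 (2.77 ± 0.20). SNAI2, a related repressor that basal cells also use, stood at 57.6, 46.9 and 16.4 CPM in MKN1, lowest in replicate 3, against 2 counts in AGS. The 2 exceptions were SNAI3 and FOXC1, a forkhead factor that fell from 343 ± 31.4 CPM in AGS to 20.8 ± 6.43 CPM in MKN1.

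Mesenchymal and matrix genes were higher in MKN1 in 41 of 56 tested and lower in 5 (median 5.51), with the same counts without replicate 3. VIM stood at 11.2, 11.2 and 13.3 CPM in AGS and 575, 578 and 518 CPM in MKN1, a difference of 5.55 ± 0.16 (adjusted p = 1.76e-11). IGFBP3, a secreted binding protein of insulin-like growth factors, was among the most abundant, at 3965, 3965 and 5016 CPM in MKN1 and 7 counts in AGS, a ratio of 77480 (95% interval 37600 to 192700) between the lines. SPARC, a matrix glycoprotein, stood at 885, 905 and 1633 CPM, highest in replicate 3, against 5 counts. The caveolin gene CAV2 stood at 311, 269 and 202 CPM against 1 count and TIMP3 at 404, 408 and 507 CPM against 4 counts. The 5 members that fell were ACTA2, TPM1, TAGLN, MYL9 and THBS1, of which all but THBS1 encode parts of the contractile cytoskeleton. TAGLN, an actin-binding protein of smooth muscle, went from 128 ± 31.4 CPM in AGS to 3.73 ± 1.05 CPM in MKN1, MYL9, a myosin light chain, from 239 ± 36.6 to 77.95 ± 10.9 CPM, and THBS1, thrombospondin, from 37.04 ± 3.99 to 0.927 ± 0.180 CPM.

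Integrin, laminin and protease genes were also divided. Of 35 tested integrin and laminin genes, 19 were called higher and 8 lower in MKN1 (median 1.08), with 5 lower without AGS replicate 3. COL7A1, the anchoring fibril collagen of squamous basement membranes, rose from 3.68, 3.91 and 3.59 CPM in AGS to 316, 359.9 and 276 CPM in MKN1, while NID1, nidogen, fell from 42.6 ± 4.84 to 0.453 ± 0.137 CPM and LAMB1 from 343 ± 16.7 to 96.7 ± 29.8 CPM. ITGB3, an integrin chain, stood at 13.8 ± 0.734 CPM in MKN1 and at 2 counts in AGS. Of 35 matrix protease genes, 16 were higher and 5 lower (median 1.00), the latter being MMP1, MMP10, MMP14, ADAM9 and TMPRSS4. CTSL stood at 748, 727 and 398 CPM in MKN1 against 2 counts, SERPINE2, a protease inhibitor, at 372 ± 109 against 0.145 ± 0.0762 CPM, and PLAU, urokinase, at 74.8 ± 10.3 CPM against 6 counts. The collagenase MMP1 stood at 385, 281 and 289 CPM in AGS and 3.98, 2.85 and 0.276 CPM in MKN1 and MMP14, the membrane-type protease, fell by 3.09 ± 0.16. Among 46 actin cytoskeleton genes, 14 were higher and 13 lower. FSCN1, which bundles actin in protrusions, stood at 1.84 ± 0.751 CPM in AGS and 319.7 ± 23.4 CPM in MKN1, RDX, radixin, at 0.0982 ± 0.0542 and 60.98 ± 11.8 CPM, and TPM2, a tropomyosin, at 0.372 ± 0.108 and 142 ± 20.8 CPM, while CALD1, caldesmon, stood at 377 ± 20.8 and 26.9 ± 1.48 CPM.

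**Figure D4:**
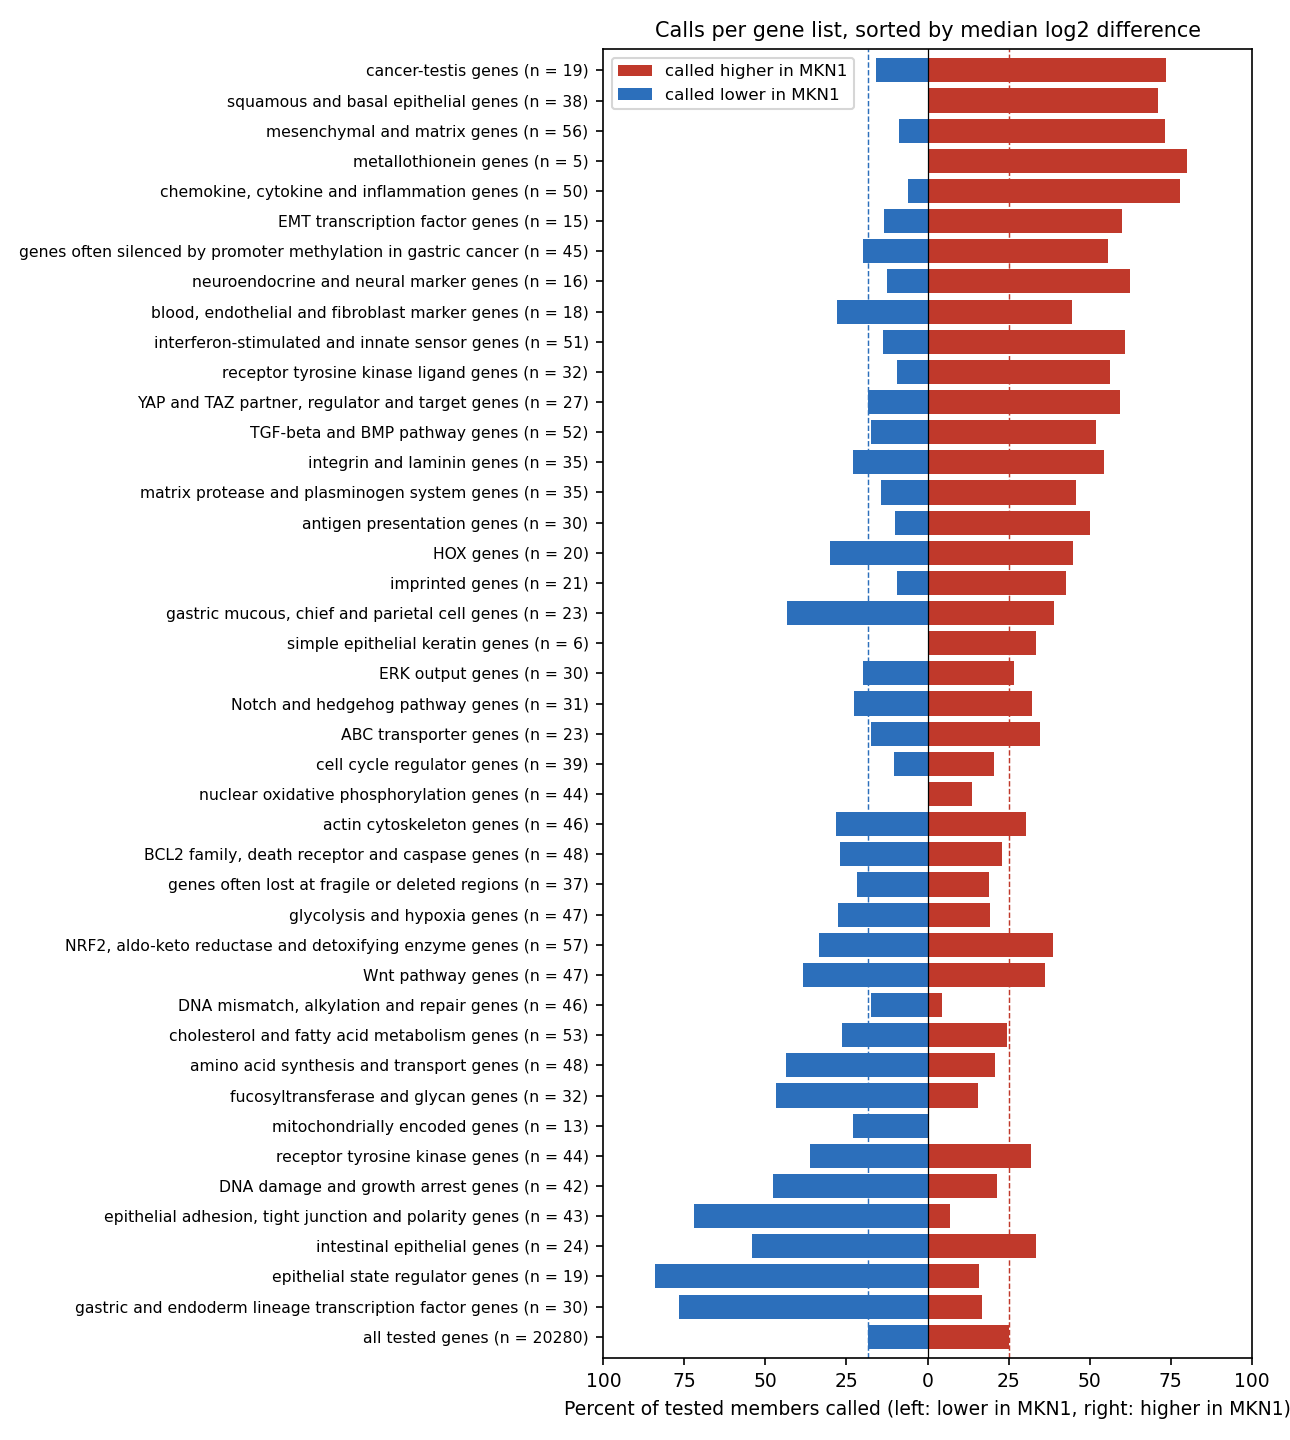
Percent of the tested members of 42 gene lists called higher (red, to the right) or lower (blue, to the left) in MKN1, sorted by the median log2 difference of the list, with all 20280 tested genes in the lowest row and as dashed lines at 25 and 18.4 percent. Cancer-testis, squamous and mesenchymal genes stand at the top and endoderm factors and epithelial regulators at the bottom.

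Receptor tyrosine kinases, which pass growth signals from outside the cell, were divided between the lines: of 44 tested, 14 were called higher and 16 lower in MKN1 (median -0.93). Without AGS replicate 3 these were 17 and 14 and the median was 0.32, so that the sign of the median rests on that library. EGFR stood at 80.6, 106 and 96.99 CPM in AGS and 647, 595 and 894 CPM in MKN1, a difference of 2.91 ± 0.21 (adjusted p = 4.83e-08). ERBB2, its relative HER2, was lower in MKN1, at 123, 136 and 143 CPM and 46.6, 47.4 and 69.01 CPM (-1.30 ± 0.16). FGFR2 stood at 37.2, 38.00 and 38.4 CPM in AGS and 2.14, 2.08 and 2.18 CPM in MKN1, whereas FGFR1 stood at 0.492, 0.257 and 4.34 CPM and 80.7, 88.7 and 99.3 CPM. The fibroblast growth factor receptors thus lay in opposite directions, with AGS replicate 3 above the other AGS libraries for FGFR1 and still below MKN1. AXL, a receptor linked to mesenchymal cells, rose from 3.15 ± 0.327 to 186 ± 59.5 CPM, and ROR2, a receptor for WNT5A, stood at 14.6 ± 6.24 CPM against 3 counts in AGS. MET, the receptor of hepatocyte growth factor, differed by less than 2-fold (-0.90 ± 0.14, adjusted p = 7.81e-05).

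Ligands of these receptors were higher in MKN1 in 18 of 32 tested and lower in 3 (median 1.44). EREG stood at 583, 438 and 106 CPM in MKN1 and at 2 counts in each AGS library, a ratio of 7584 (95% interval 3484 to 20670) between the lines. AREG stood at 60.7, 51.98 and 7.94 CPM against 3 counts, a ratio of 1613 (95% interval 552 to 7826) between the lines, and EPGN, which lies beside them and was named for that reason, at 10.7, 9.08 and 3.00 CPM against 5 counts. All 3 EGF receptor ligands were lowest in MKN1 replicate 3, though still above AGS. IGF2 stood at 616, 722 and 439 CPM in MKN1 and 0.0973 ± 0.0847 CPM in AGS. The 3 lower ligands were VEGFA, the vascular growth factor (-1.34 ± 0.27), EFNA4 and NRG4.

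PIK3CA, a lipid kinase subunit downstream of these receptors, differed by less than 2-fold (0.54 ± 0.13). Genes that report ERK activity were split, with 8 of 30 called higher and 6 lower in MKN1 (median 0.35), near the background shares. The median was 0.17 without MKN1 replicate 1 and 0.23 without replicate 2. DUSP5, a nuclear ERK phosphatase, stood at 22.5 ± 7.46 CPM in MKN1 against 6 counts in AGS, and FOSL1, an AP-1 subunit, at 26.1, 26.1 and 28.5 CPM in AGS and 298, 306 and 66.5 CPM in MKN1. DUSP4 and SPRED1, which restrain the pathway, fell by 1.71 ± 0.27 and 1.84 ± 0.09. MKN1 replicate 3 was the lowest MKN1 library for DUSP5, FOSL1 and DUSP4. Without it 10 ERK genes were called higher and 8 lower.

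Wnt pathway genes were called higher in 17 and lower in 18 of 47 tested (median -0.32), with members of one role on both sides. Without MKN1 replicate 3, 17 were higher and 20 lower and the median was -0.54. Several genes that canonical Wnt signalling switches on had the largest decreases. LGR5, a stem cell receptor for R-spondins, stood at 301, 328 and 286 CPM in AGS and 1.09, 0.730 and 1.96 CPM in MKN1. AXIN2, a feedback scaffold, stood at 393, 411 and 384 CPM and 9.01, 7.88 and 15.9 CPM, a difference of -5.17 ± 0.23 (adjusted p = 5.09e-10). RNF43, a ubiquitin ligase that removes Wnt receptors, and NKD1, a feedback inhibitor, fell by 7.66 ± 0.30 and 4.46 ± 0.30. In these 4 genes each AGS library was above each MKN1 library. Other genes of that kind lay the other way, and LEF1, a partner of beta-catenin, and NKD2, a relative of NKD1, which were named after their values were seen, had differences of 6.40 and 7.56. CTNNB1, which encodes beta-catenin, was at like levels, 494 ± 11.4 CPM in AGS and 470.3 ± 43.9 CPM in MKN1 (-0.07 ± 0.10, adjusted p = 0.545). Ligands and receptors were among the increases, with WNT5A at 49.3, 49.4 and 53.5 CPM in MKN1 and 0 counts in AGS, at least 2115-fold higher in MKN1, and the receptor FZD1 at 45.4 ± 15.3 CPM against 4 counts.

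TGF-beta and BMP pathway genes were higher in MKN1 in 27 of 52 tested and lower in 9 (median 1.15). Beside GREM1, INHBA, the activin A subunit, stood at 0.0985, 0.0857 and 0.154 CPM in AGS and 415, 349 and 367 CPM in MKN1, and the ligand TGFB2 at 0.246 ± 0.229 and 119 ± 18.3 CPM. GDF15, a stress-induced member of the family, was opposite, at 488, 505 and 519 CPM in AGS and 3.36, 5.00 and 11.7 CPM in MKN1 (-6.23 ± 0.65). The receptor BMPR2 fell by 2.24 ± 0.17, and SMAD4, the shared signal transducer, differed by less than 2-fold (0.80 ± 0.10). Among 31 Notch and hedgehog genes, 10 were higher and 7 lower, not far above the background shares. The ligand DLL1 (4.72 ± 0.42) and the hedgehog effector GLI3, at 12.7 ± 7.44 CPM against 2 counts, were among the higher. NRARP, a Notch feedback gene, was among the lower (-1.76 ± 0.31). Of 27 partners, regulators and targets of the Hippo pathway factors YAP and TAZ, 16 were higher and 5 lower (median 1.34), with the ectonucleotidase NT5E (6.58 ± 0.44) and the cofactor VGLL3, at 9.68 ± 2.15 CPM against 0 counts, among the higher. The 5 lower ones were TEAD2, a DNA-binding partner of YAP (-1.97 ± 0.13), AJUBA, a scaffold (-1.88 ± 0.16), TEAD3, TEAD4 and VGLL4, DNA-binding partners and cofactors. YAP1 itself differed by 0.26 ± 0.12 and did not pass the test (adjusted p = 0.0645). It passed under 6 of 17 alternatives, the lowest adjusted p being 0.0193 with DESeq2, and gave 0.242 without MKN1 replicate 3.

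Most cytokine and inflammation genes were higher in MKN1, 39 of 50 tested, and 3 were lower (median 4.07), with the same counts without replicate 3. IL6, a cytokine that signals through STAT3, stood at 342, 341 and 326 CPM in MKN1 and at 4 counts in AGS, a ratio of 10470 (95% interval 4090 to 38440) between the lines. SAA1, an acute-phase protein, stood at 279.5, 334 and 429.9 CPM against 2 counts, a ratio of 21880 (95% interval 6058 to 180700) between the lines, and the monocyte chemokine CCL2 at 51.6, 52.5 and 87.96 CPM against 2 counts. TNF stood at 7.03, 6.60 and 7.82 CPM against 0 counts, at least 299-fold higher in MKN1. The 3 lower genes were IL33, IL1RN and the transmembrane chemokine CXCL16, at 111 ± 8.13 CPM in AGS and 21.8 ± 2.00 CPM in MKN1. Levels of IL6 differed little among the MKN1 libraries, unlike those of the EGF receptor ligands.

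Interferon-stimulated and innate sensor genes were higher in MKN1 in 31 of 51 tested and lower in 7 (median 1.59), and MKN1 replicate 3 had a lower median over the list than the other MKN1 libraries, 0.79 against 1.73 and 1.69 on the log2(CPM + 1) scale. HERC5, an ISG15 ligase, stood at 0.256, 0.371 and 0.308 CPM in AGS and 359, 307 and 108 CPM in MKN1. HERC6, its relative, stood at 73.7 ± 22.98 CPM against 10 counts, and SLFN11, a factor that blocks stalled replication, at 10.3 ± 2.98 CPM against 3 counts. IRF9 and OAS1, the first a subunit of the interferon-activated transcription factor and the second an RNA sensor, fell by 2.18 ± 0.19 and 1.37 ± 0.30. Of 30 antigen presentation genes, 15 were higher and 3 lower (median 0.98). HLA-DRA, a class II chain, stood at 0.236, 0.0857 and 0.128 CPM and 19.8, 20.9 and 23.3 CPM, and ULBP2, a stress ligand for natural killer cells, at 0.0911 ± 0.0349 and 58.4 ± 4.42 CPM. B2M, the light chain of class I, differed by less than 2-fold (0.43 ± 0.14, adjusted p = 0.0153), and the 3 lower genes were NLRC5, the class I activator (-1.39 ± 0.10), PSME1 and HLA-DMA.

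DNA damage and growth arrest genes were lower in MKN1 in 20 of 42 tested and higher in 9 (median -0.94). SESN2, a stress-induced regulator of mTORC1, stood at 124, 123 and 129 CPM in AGS and 10.6, 10.4 and 20.9 CPM in MKN1, BTG2, an antiproliferative factor, at 87.2 ± 4.06 and 6.98 ± 0.610 CPM, and the BH3-only gene BBC3, PUMA, at 70.98 ± 8.56 and 7.93 ± 1.66 CPM. The death effector BAX stood at 254, 233 and 312 CPM in AGS and 28.6, 37.9 and 38.97 CPM in MKN1, a difference of -2.92 ± 0.16 (adjusted p = 3.37e-09), and APAF1, the apoptosome core, fell by 2.36 ± 0.15. PHLDA3, a repressor of AKT, was opposite, at 0.158 ± 0.0727 CPM in AGS and 26.4 ± 3.23 CPM in MKN1. Over 48 BCL2 family, death receptor and caspase genes, 11 were higher and 13 lower (median 0.00, or -0.11 to 0.07 with 1 library left out). The higher share was near the background. Inflammasome genes were among the higher ones, the adaptor PYCARD at 19.1 ± 2.48 CPM against 9 counts and CASP1 at 9.01 ± 2.01 CPM against 8 counts.

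Of 39 cell cycle regulators, 8 were higher and 4 lower in MKN1, below the background shares in both directions. The 4 lower ones were CDKN1B, CDKN2B, MYCL and PCNA. CDKN2A, which encodes the CDK inhibitor p16 and ARF, stood at 0.197, 0.0857 and 1.31 CPM in AGS and 42.3, 53.5 and 41.8 CPM in MKN1, with AGS replicate 3 the highest of the AGS libraries. CDKN1B, the CDK inhibitor p27, was opposite, at 151, 148 and 153 CPM and 10.2, 9.70 and 15.4 CPM (-3.68 ± 0.17). CDKN1C, p57, rose by 3.79 ± 0.30 and the cyclin-dependent kinase CDK14 stood at 10.5 ± 1.26 CPM against 10 counts. MYC stood at 97.05, 83.2 and 86.5 CPM in AGS and 65.7, 60.5 and 24.2 CPM in MKN1, a difference of -0.83 ± 0.34 (adjusted p = 0.0456) that was under 2-fold. It was lowest in MKN1 replicate 3, and without that library the difference was -0.49 with an adjusted p of 0.129. Of 46 repair genes, 2 were higher and 8 lower (median -0.50), the lower share near the background and the higher share below it. The base excision nuclease APEX1 stood at 213, 208 and 220.3 CPM in AGS and 47.5, 56.6 and 54.8 CPM in MKN1, and MLH3 fell by 1.91 ± 0.16. The 2 higher ones were LIG4 and the uracil glycosylase UNG (1.70 ± 0.13).

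Amino acid metabolism separated the lines by enzyme. Of 48 tested genes of synthesis and transport, 21 were lower and 10 higher in MKN1 (median -0.61). PHGDH, the entry enzyme of serine synthesis, stood at 0.0985, 0.229 and 0.180 CPM in AGS and 49.95, 62.4 and 139 CPM in MKN1, highest in replicate 3. ASS1, which makes argininosuccinate so that cells can make arginine, stood at 1.46, 1.14 and 1.36 CPM and 586, 722 and 711 CPM, a difference of 8.98 ± 0.17 (adjusted p = 1.39e-12). Both were near 0 in AGS. BCAT1, the cytosolic branched-chain aminotransferase, and NNMT, a nicotinamide methyltransferase, rose by 8.06 ± 0.48 and 7.49 ± 0.36. SLC7A11, the cystine importer, stood at 472, 433 and 395 CPM in AGS and 34.4, 28.1 and 34.4 CPM in MKN1, SLC1A5, a glutamine transporter, at 1345, 1177 and 1336 CPM and 79.3, 92.6 and 172 CPM, and PYCR1, the last enzyme of proline synthesis, fell by 3.06 ± 0.34. For SLC1A5 and PYCR1 the third MKN1 library was the highest of the 3 and still below AGS.

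Lipid genes were divided near the background shares, 13 higher and 14 lower of 53 (median -0.53), but single enzymes of fatty acid modification differed widely. ELOVL5, an elongase, stood at 239, 205 and 246 CPM in MKN1 and 7 counts in AGS, a ratio of 4118 (95% interval 1998 to 10240) between the lines, and FADS1, the delta-5 desaturase, at 0.414, 0.400 and 0.411 CPM in AGS and 121, 117 and 154 CPM in MKN1. PLIN2, a lipid droplet coat, rose by 8.67 ± 0.48. SCD, the delta-9 desaturase, stood at 1693, 1820 and 1657 CPM and 275, 288 and 218 CPM, and FABP5, a fatty acid carrier, at 70.3 ± 17.1 and 4.03 ± 1.56 CPM. Both were lower in every MKN1 library. Of 47 glycolysis and hypoxia genes, 9 were higher and 13 lower (median -0.21). The glucose transporter SLC2A1 fell by 1.44 ± 0.16 and mitochondrial PCK2 by 3.60 ± 0.41, while ADM, adrenomedullin, was higher by 6.01 ± 0.23 and PDK4, which restrains pyruvate oxidation, stood at 5.30, 5.51 and 18.1 CPM against 0 counts.

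Detoxifying enzymes were divided as well, 22 higher and 19 lower of 57 (median -0.30, or -0.14 without MKN1 replicate 3). GPX2, the gut glutathione peroxidase, stood at 99.9, 88.9 and 100.2 CPM in AGS and 0.170, 0.182 and 0.184 CPM in MKN1, and ALDH3A1 at 47.7 ± 7.07 and 0.992 ± 0.270 CPM. ALDH1A3, which makes retinoic acid, was opposite, at 0.118, 0.400 and 0.411 CPM in AGS and 738, 652 and 428 CPM in MKN1, as were CYP1B1, a cytochrome P450, at 264 ± 73.1 CPM against 2 counts, and UCHL1, a neuronal deubiquitinase, at 0.0961 ± 0.120 and 482 ± 15.1 CPM. For each of these 5 enzymes the libraries of the lines did not overlap. Metallothioneins, which bind zinc and copper, were higher in MKN1 in 4 of 5 tested list members, MT1E, MT1F, MT1X and MT2A (median 4.08), the member without a call being the transcription factor MTF1. MT2A stood at 13.6 ± 2.36 CPM in AGS and 268, 339.8 and 150.4 CPM in MKN1, and MT1E at 0.335, 0.428 and 0.590 CPM and 80.2, 96.04 and 26.3 CPM, with replicate 3 lowest for both, and close copies among these genes may share counts. The cholesterol exporter ABCG1 was higher by 6.88 ± 0.44. ABC transporters as a list had 8 higher and 4 lower of 23, the lower share near the background. The lower ones were ABCA7, ABCA12, ABCA13 and the multidrug pump ABCB1.

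Of the 44 tested nuclear genes of oxidative phosphorylation, 38 were not called, 6 were higher and 0 lower in MKN1 (median 0.15). Leaving out 1 library gave 4 to 6 higher, and 3 lower without AGS replicate 2, 2 without MKN1 replicate 2 and 1 without MKN1 replicate 1. SDHA, a subunit of complex II, was higher by 1.19 ± 0.10, and COX6B2, a cytochrome oxidase subunit best known from testis, stood at 0.948 ± 0.0809 CPM in AGS and 18.9 ± 2.26 CPM in MKN1. The 13 mitochondrially encoded genes had a median of -0.85, with 3 called lower, MT-ND1, MT-ND5 and MT-ND6, and 0 higher. MT-ND6 stood at 862, 728 and 728 CPM in AGS and 206, 217 and 160.2 CPM in MKN1 and MT-ND1 at 4965, 4477 and 4940 CPM and 1939, 2199 and 1749 CPM. Glycan genes were lower in 15 of 32 and higher in 5 (median -0.81). FUT1, which makes the H blood group antigen, stood at 404, 385 and 377 CPM in AGS and 3.43, 2.92 and 7.60 CPM in MKN1, ST6GALNAC1, which makes sialyl-Tn, at 15.2 ± 1.41 and 0.125 ± 0.0496 CPM, and the sialyltransferase ST3GAL1 at 151 ± 29.3 CPM in MKN1 against 6 counts in AGS. With ST3GAL1, the 5 higher ones were ST3GAL4, ST3GAL6, GCNT1 and FUT11.

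Germline genes were among the widest differences. Of 19 tested cancer-testis genes, which are normally kept silent outside the germline, 14 were higher and 3 lower (median 6.20), and 13 and 3 without replicate 3. Their summed level was 14.8 to 21.4 CPM in AGS libraries and 548 to 631 CPM in MKN1 libraries. PASD1, the cancer-testis gene described above as on in AGS and off in MKN1, went the other way. The list does not hold it, and its level in each AGS library was above the AGS sum of the list. MAGEC1 stood at 87.5, 86.4 and 90.7 CPM in MKN1 and XAGE2 at 54.03, 57.7 and 69.9 CPM, each with 0 counts in AGS, at least 3673-fold higher in MKN1 for MAGEC1 and at least 2533-fold higher in MKN1 for XAGE2. The 3 lower genes were TEX19, ACTL8 and SYCP3. Among 21 imprinted genes, 9 were higher and 2 lower (median 0.68). The noncoding RNA H19 stood at 61.5, 47.7 and 57.2 CPM in AGS and 5337, 6856 and 5176 CPM in MKN1 (6.70 ± 0.27), PEG10 at 0.126 ± 0.110 and 37.7 ± 4.19 CPM, and the 2 lower ones were SLC22A18 and MEST, the latter at 132 ± 7.40 and 19.2 ± 0.604 CPM. HOX genes, which record position along the body axis, had 9 higher and 6 lower of 20, with HOXA7 higher (5.74 ± 0.68) and HOXB9 lower (-2.09 ± 0.31) in MKN1.

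Of 45 genes often reported as silenced by promoter methylation in gastric cancer, 25 were higher and 9 lower in MKN1 (median 2.29). SDC2, a heparan sulfate proteoglycan whose methylation is used in stool tests, stood at 77.4, 73.5 and 60.95 CPM in MKN1 against 0 counts in AGS, at least 2919-fold higher in MKN1. GPX3, the plasma glutathione peroxidase, was opposite, at 60.2 ± 9.90 CPM in AGS and 4.31 ± 1.30 CPM in MKN1. Among 37 genes at fragile or often deleted regions, 7 were higher and 8 lower, near the background, with the guidance receptor ROBO1 higher (7.46 ± 0.37) and the forkhead factor FOXP1 lower (-2.50 ± 0.24). Of 16 neuroendocrine and neural markers, 10 were higher and 2 lower (median 2.28), UCHL1 among the higher and SCG2 and ELAVL3 the lower ones. Leaving out any 1 library other than MKN1 replicate 2 left 1 lower.

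Against these differences, 1763 genes (8.69%) had like levels, the 95% interval of their log2 difference lying within 0.5 on either side of 0. Among the most abundant protein-coding ones were ENO1, a glycolytic enzyme, TPT1, the chaperones HSP90AB1 and CANX, the adaptor YWHAZ, the ribosomal protein RPLP0 and the amyloid precursor APP. YWHAZ stood at 1363, 1364 and 1371 CPM in AGS and 1400, 1272 and 1399 CPM in MKN1, with a log2 difference of -0.01 ± 0.10 and an interval of -0.24 to 0.22. TPT1 stood at 2084 ± 86.2 and 2114 ± 63.9 CPM and RPLP0 at 1356 ± 65.5 and 1327 ± 149 CPM. The libraries of the lines overlapped for all 3 of these.

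Differences were not spread evenly over the genome. Over the 12766 genes with at least 1 CPM on average in both lines, the median difference was -0.11, and it was taken for each chromosome and for 257 windows of 10 Mb with at least 15 genes. Of these windows, 63 had a median of at least 0.5 in either direction. Chromosome 14 had the lowest median, -0.76 over 430 genes, with 179 called lower and 30 higher, and chromosome 18 the highest, 0.54 over 173 genes. For comparison, chromosome 1, with the most of these genes, had 219 called lower and 160 higher of 1323. The background shares of calls given above do not apply to these genes, since genes below 1 CPM in either line are left out. Medians on chromosome 14 were -0.74, -0.73 and -0.83 in the 3 MKN1 libraries against the AGS mean (log2(CPM + 1) scale) and -0.87 between the treated groups.

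Between 20 and 70 Mb on chromosome 14 (GRCh38), 218 of 244 genes were lower in MKN1 on average, with a median of -1.25, and 152 were called lower and 9 higher. APEX1 (20455191 to 20457772), MMP14 (22836557 to 22849027), AJUBA (22971174 to 22982642), PCK2 (24094053 to 24110598), IRF9 (24161053 to 24166565) and GPX2 (64939152 to 64942905), all described above as lower in MKN1, lie in this stretch. GPX2, below 1 CPM in MKN1, is not among the 244 genes. At the start of chromosome 5, the first 10 Mb had a median of 1.58, with 36 of 37 genes higher in MKN1, 28 called higher and 0 lower. SDHA lies in it, and, named after their values were seen, so do the potassium-chloride cotransporter SLC12A7, at 58.6 ± 1.96 CPM in AGS and 597 ± 181 CPM in MKN1, and the phospholipid enzyme LPCAT1, at 79.2 ± 3.98 and 445 ± 49.7 CPM. Both stretches follow the windows with the lowest and highest medians and were set after values were seen, so their counts carry no test. The share called over all 12766 genes is not given here, and chromosome 1 above serves as the comparison.

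On chromosome 12, the window from 20 to 30 Mb, which holds RASSF8, had a median of 0.94 over 30 genes, with 22 above 0. PTHLH, the parathyroid hormone-related protein, lies in the same window, at 388, 391 and 146 CPM in MKN1 and 0 counts in AGS, at least 12490-fold higher in MKN1. RASSF8 and PTHLH, at 0 counts in AGS, are not among the 30 genes of the median. Chromosome 18 was not uniform, with medians of -0.85 in its first 10 Mb, 1.53 from 40 to 50 Mb and 1.33 from 70 to 80 Mb. Copy number was not measured, and its part in these differences was not tested.

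**Figure D5:**
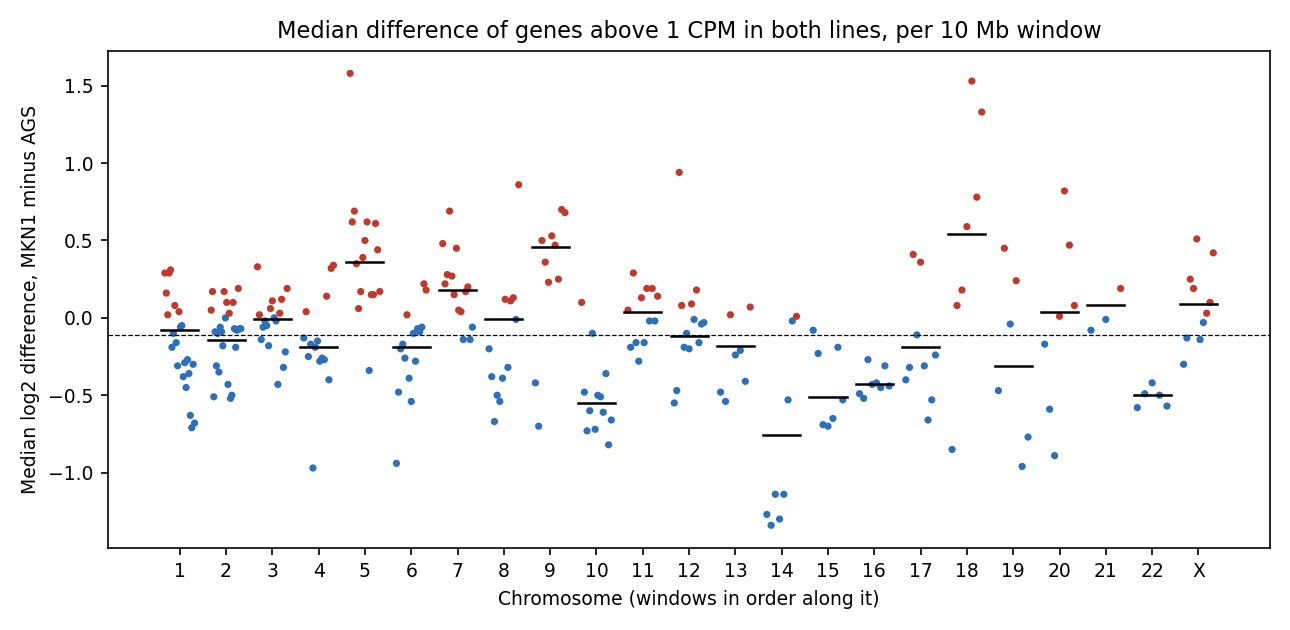
Median log2 difference (MKN1 minus AGS, y axis) of genes with at least 1 CPM in both lines, for each of 257 windows of 10 Mb (points, in order within each chromosome on the x axis; red above 0, blue below), with a bar for the median of each chromosome and a dashed line at -0.11. The 5 windows between 20 and 70 Mb of chromosome 14 lie lowest, and the first window of chromosome 5 lies highest.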

How the data were processed

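RNA of 12 libraries (AGS and MKN1 cells, untreated or treated, 3 libraries per group) was sequenced as mRNA libraries from a kit that does not mark strand, per the labels. The deposited table holds whole-number counts of reads per gene, with no normalization, for 32269 identifiers. HISAT2 2.0.4 and the hg38 (GRCh38) build are named in the submitters' processing notes. For the counting step, neither tool nor annotation nor strand setting was given in the sources used here. Symbols, positions and exon lengths came from GENCODE release 29, which held a position for 32136 identifiers.

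Groups followed the labels. Counts were scaled by TMM and tested with edgeR 4.0.16 (R 4.3.3) over the 20280 genes that passed filterByExpr. The quasi-likelihood test contrasted the untreated groups in a fit of all 12 libraries, with Benjamini-Hochberg adjustment over all tested genes. Zero or near-zero genes are given by counts, with a floor of 3 counts over a group or the exact 95% counting interval of the ratio, which cover counting error only. No libraries agreed within sampling noise, and the script was tested on simulated data.

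Alternatives were DESeq2 1.42.0, limma 3.58.1 (voom), glmTreat, other scalings and filters, the untreated libraries alone, a replicate block, and each library left out. Members and lists were chosen with earlier results of these data known. Named were the 12 largest differences in each direction (mean of at least 10 CPM, no overlap), up to 4 members of each list per direction, the 10 most abundant on/off genes per direction, the 8 most abundant genes at like levels and 38 genes of known role in gastric cancer, not all of which are described (some items are not reported here). Where a list had 5 or fewer calls in a direction, all were named after their values were seen. Promoter windows came from RefSeq, and the 4 shown were chosen after values were seen.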

Additional observations from a re-analysis of the deposited data

Results flagged for a closer look

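For 33 of the 199 genes examined for the text, the difference between the lines changed with treatment (interaction term of the edgeR fit, Benjamini-Hochberg adjusted p below 0.05). It did so for 3180 of the 20280 tested genes, so the share among the genes of the text was near that of all genes. Each value here is the treated difference minus the untreated one, in log2 units. Among keratin and lineage genes it was -4.43 for KRT5, 1.11 for KRT19, 1.66 for GATA4, -0.76 for CTSE, -1.88 for MUC1, -3.63 for TFF1 and 5.84 for SCEL. MUC1 was called higher in untreated MKN1 (1.01) and stood at -0.87 between the treated groups, with no call.

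For mesenchymal, matrix and receptor genes the values were 1.09 for ZEB1, -4.61 for IGFBP3, -3.32 for TIMP3, 1.93 for COL7A1, 2.04 for NID1, -3.27 for PLAU and -1.07 for EGFR. Immune, DNA damage and growth arrest genes gave 4.59 for HLA-DRA, -0.72 for NLRC5, 2.16 for SESN2, 1.35 for BTG2, 0.76 for BAX, 0.67 for APAF1, -2.53 for CASP1, 4.40 for CDKN2A and 0.64 for APEX1.

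Metabolic genes gave -1.84 for ASS1, 1.80 for SLC1A5, -0.73 for SLC2A1, -1.96 for ALDH1A3, 1.48 for GPX2 and 0.75 for ENO1, which had like levels in untreated cells. The remaining genes gave -4.58 for MAGEC1, -2.31 for H19, -5.64 for PNMA5 and -4.65 for RASSF8. The values of KRT5, MAGEC1, PNMA5, RASSF8 and SCEL rest on 0 counts in all untreated libraries of one line, and those of IGFBP3, TIMP3, PLAU and CASP1 on 4 to 8 counts, so their size depends on the prior count. Low levels in one untreated line, mostly under 1 CPM, also underlie the values of TFF1, HLA-DRA, CDKN2A, ALDH1A3, GPX2 and NID1. TFF1 had 10, 16 and 0 counts in the untreated MKN1 libraries. Groups of 3 libraries are too small for a test of single outlying libraries.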

How the results depend on the processing

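Counts of genes past the threshold stayed within 1.5 times under 15 of the 17 alternative fits, and no gene called at least 2-fold was called in the opposite direction under any of the 17. Counts moved further under a filter of 5 CPM in 3 libraries (4717 higher at any size, 2725 higher and 2175 lower at least 2-fold), which tests fewer genes, and under glmTreat against 2-fold (3963 higher and 2510 lower), which is a stricter test. Leaving out 1 library at a time gave 6570 to 7211 higher and 5830 to 6426 lower, and 4988 to 5175 and 3627 to 3873 at least 2-fold.

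Replicate numbers did not pair the libraries: deviations of same-numbered libraries correlated at 0.057, -0.091 and 0.043. With the replicate number as a block, 7034 genes were higher and 6393 lower, 5032 and 3746 of them at least 2-fold.

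On/off counts follow their limits. With off as 0 counts, 109 genes were on in MKN1 and 8 in AGS, with off as at most 10 counts 656 and 75, with a mean of at least 1 CPM 581 and 68, and with at least 20 CPM 149 and 15. Leaving out 1 library gave 339 to 432 and 27 to 40. Like-level genes numbered 225 within 0.3 and 6579 within 1, and 1849 without MKN1 replicate 3, an alternative chosen after seeing the data.

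Of 3373 checks of single genes, 29 lost and 6 gained the threshold and 0 changed sign past it. MYC (adjusted p 0.0456) lost it under 11 of 17 alternatives (range 0.0214 to 0.828). KRT18 lost it without AGS replicate 1 (0.139), AGS replicate 2 (0.0965), MKN1 replicate 2 (0.0887) or MKN1 replicate 3 (0.0806), and with no filter (0.0576). B2M lost it without AGS replicate 1 (0.0536) or MKN1 replicate 1 (0.0816), and both lost it under glmTreat, which tests against 2-fold. YAP1 gained it under 6 alternatives (range over 17 of 0.0193 to 1). The median of the blood, endothelial and fibroblast markers turned to -0.56 under the 5 CPM filter, which keeps fewer members. Of 713 checks of list medians, 106 moved by more than the spread of library medians, and 1 median of at least 1 in size, that just named, changed sign. The largest shifts of any list were 5.95 under the 5 CPM filter, 2.73 for the 6 untreated libraries alone and 2.16 with no filter, which change the members tested, 0.96 with limma voom, 0.47 with the replicate block and 0.57 to 1.25 with 1 library left out. The typical (median) shift was at most 0.14 under any alternative, and other scalings shifted a list by at most 0.08. Genes under about 1 CPM and differences near the MKN1 spread are not resolved by 3 libraries.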
